A study of Mus musculus with 24 samples.

Results

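The 4 receptor genes described here, by the excision repair of cisplatin adducts within them, are Nr1d1 and Nr1d2, which encode the nuclear receptors REV-ERBα and REV-ERBβ, and Thra and Thrb, which encode the thyroid hormone receptors α and β. They were chosen by name, as every entry of the deposited tables that carries one of these symbols. Each symbol had 1 entry, which gives 4 of the 25239 entries and 4 of the 24357 with a symbol. The data are XR-seq libraries, in which the short oligomers cut out of damaged DNA by nucleotide excision repair are sequenced, so that a read marks an adduct being removed. Kidney and liver came from wild type C57BL/6 females aged 6 months, with 12 h of light followed by 12 h of dark each day. They were given cisplatin at 10 mg/kg into the peritoneum, and tissue was taken 2 h later. There were 2 libraries for each tissue at zeitgeber times (ZT, where lights come on at 0 h) 0, 4, 8, 12, 16 and 20, and all 24 libraries come from injected animals. Whether both libraries of one time stem from different mice is not stated in the labels. All p-values thus rest on the spread among libraries, which may be technical.

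REV-ERBα and REV-ERBβ bind response elements in clock genes such as Arntl and repress them through the NCoR and HDAC3 corepressor complex, and their own genes are activated by CLOCK and BMAL1. In liver they also restrain lipid and bile acid genes. Thyroid hormone receptors bind DNA with retinoid X receptors and activate or repress genes according to whether the hormone is bound, and TRβ is the main form in liver. In genes being transcribed, RNA polymerase that stalls at an adduct recruits repair to the template. Reads on the transcribed strand (TS) therefore follow transcription, while reads on the non-transcribed strand (NTS) come mainly from global repair, unless something else transcribes that strand.

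Each REV-ERB gene lies beside a thyroid hormone receptor gene, with the pair facing each other tail to tail. Nr1d1 covers 7.4 kb of the minus strand of chromosome 11 (98767932 to 98775377, mm10) and Thra covers 27.2 kb of its plus strand (98741785 to 98769006). Their 3′ ends share 1075 bp, from 98767932 to 98769006, which is 14.4% of the length of Nr1d1 and 3.95% of that of Thra. In this shared span the NTS of one gene is the TS of the other. Nr1d2 covers 35.1 kb of the minus strand of chromosome 14 (18204056 to 18239106) and Thrb covers 377.1 kb of its plus strand (17660960 to 18038088). These genes share no base and stand 166.0 kb apart.

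**Figure D1:**
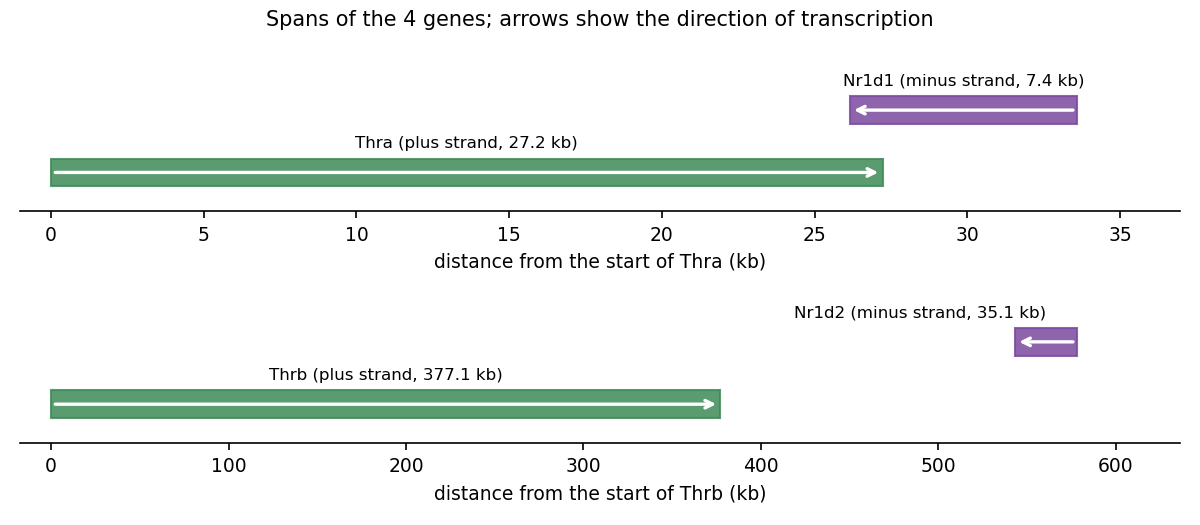
Spans of Nr1d1 with Thra (top) and Nr1d2 with Thrb (bottom), in kb from the start of the thyroid hormone receptor gene. Arrows give the direction of transcription: Nr1d1 and Thra share 1075 bp at their 3′ ends, and Nr1d2 and Thrb do not overlap.

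The bases before the start of Nr1d1 and Nr1d2 are shown because the TS repair of these genes moved together over the day. Thrb stands beside them as the thyroid hormone receptor gene for which a window was given. RefSeq (GRCm38.p6) gave windows for 3 of the 4 genes, and each run holds the 250 bases before the start, on the strand of the gene. Capitals mark a match to CACGTG (the E-box bound by CLOCK and BMAL1), TTANGTAA (the D-box) or AGGTCA (the core of the elements bound by REV-ERB and ROR receptors), searched on both strands.
Nr1d1, chr11:98775378-98775627, minus strand: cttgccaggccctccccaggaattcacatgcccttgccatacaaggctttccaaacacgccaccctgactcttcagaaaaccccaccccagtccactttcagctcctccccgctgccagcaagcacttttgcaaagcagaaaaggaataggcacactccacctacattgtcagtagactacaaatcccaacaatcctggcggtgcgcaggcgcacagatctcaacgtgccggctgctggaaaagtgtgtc
Nr1d2, chr14:18239107-18239356, minus strand: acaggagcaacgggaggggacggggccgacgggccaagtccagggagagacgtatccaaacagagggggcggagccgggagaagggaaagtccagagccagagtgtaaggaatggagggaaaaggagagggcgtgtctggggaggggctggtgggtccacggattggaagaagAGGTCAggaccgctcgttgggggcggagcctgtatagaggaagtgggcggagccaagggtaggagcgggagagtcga
Thrb, chr14:17660710-17660959, plus strand: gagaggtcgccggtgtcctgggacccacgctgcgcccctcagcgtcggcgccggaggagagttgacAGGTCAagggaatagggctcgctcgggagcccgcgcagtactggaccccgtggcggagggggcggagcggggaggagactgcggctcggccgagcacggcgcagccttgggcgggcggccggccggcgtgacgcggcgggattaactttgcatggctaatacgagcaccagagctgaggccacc
In the windows of 300 bases that the table gives, which run 50 bases past the start, Nr1d2 held 1 AGGTCA, beginning 77 bases before its start, and Thrb held 1, beginning 184 bases before. A second Thrb window, not printed here, held 1 CACGTG, and the Nr1d1 window held no match to any of the 3 motifs. Of all 32851 windows, 7.15% held CACGTG, 2.32% TTANGTAA and 16.3% AGGTCA.

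The kidney libraries held 8718055 to 33716763 reads and the liver libraries 12917058 to 28244795. By chi-square over genes, the 2 libraries of ZT0 differed most from each other, on both strands and in both tissues. The tissues matched their markers: all 7 kidney markers, such as Umod and Slc34a1, had more TS reads in kidney, and all 7 liver markers, such as Alb and Cps1, had more in liver. In kidney the libraries of the same replicate number deviated together, which was not so in liver, so that blocked values are given beside kidney results where they change a call. A lower value in such bulk tissue may mean fewer cells of a type or less repair per cell, and these cannot be told apart.

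By the median over the day, Nr1d1 had the densest TS repair of the 4 genes in both tissues. On the RPKM scale, which divides the reads of a gene by its length and by the size of the library, its TS level had a median of 5.85 over the 12 kidney libraries (2.41 to 8.45) and of 4.74 over the 12 liver libraries (2.30 to 7.09). Thra followed with a TS median of 3.06 RPKM in kidney (2.52 to 4.20) and 2.58 in liver (1.88 to 4.08). At ZT20 the mean of Thra was above that of Nr1d1, with 3.54 against 2.56 RPKM in kidney and 3.21 against 2.41 in liver. Nr1d2 had TS medians of 1.61 RPKM in kidney (1.12 to 2.07) and 1.55 in liver (0.832 to 1.79). Thrb was the lowest, with 0.464 RPKM in kidney (0.363 to 0.647) and 0.990 in liver (0.849 to 1.09). The libraries of Thrb did not overlap those of any other member in kidney, while in liver they overlapped those of Nr1d2, and those of Nr1d1 and Thra overlapped in both tissues. By mean TS level Nr1d1 stood above 97.4% of the genes tested in kidney and 95.8% in liver, and Thrb above 38.3% and 48.6%. A library held 224 to 1408 TS reads of Nr1d1 in kidney and 331 to 1128 in liver, and 1419 to 6815 and 4288 to 11287 of Thrb, which is much longer.

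TS repair of Nr1d1 was highest in the second part of the light phase and lowest late in the dark phase, in both tissues. In kidney its 2 libraries had 6.21 and 4.96 RPKM at ZT0, 8.29 and 7.36 at ZT4, 8.45 and 7.66 at ZT8, 5.49 and 6.61 at ZT12, 4.44 and 3.68 at ZT16, and 2.71 and 2.41 at ZT20. All 4 libraries of ZT4 and ZT8 stood above the other 8, and both ZT20 libraries stood below the rest, while the ZT4 and ZT8 pairs overlapped each other. In liver the libraries had 3.67 and 5.14 RPKM at ZT0, 5.85 and 6.27 at ZT4, 7.09 and 6.48 at ZT8, 5.99 and 4.35 at ZT12, 3.68 and 4.00 at ZT16, and 2.30 and 2.52 at ZT20. The ZT8 pair was above all other liver libraries and the ZT20 pair below them, and the ZT0, ZT12 and ZT16 pairs overlapped in part. Over the day the mean level at ZT8 was 3.15 times that at ZT20 in kidney and 2.82 times in liver.

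A 24 h cosine fitted to the counts gave Nr1d1 a log2 amplitude of 0.71 ± 0.09 (SE, 12 libraries) in kidney with a peak at 6.7 h (adjusted p = 0.000346), a 2.66-fold range between peak and trough. In liver the amplitude was 0.62 ± 0.09 with a peak at 7.2 h (adjusted p = 0.00164), a 2.37-fold range. These and all adjusted p of fits across genes come from the quasi-likelihood test of edgeR, adjusted by Benjamini-Hochberg over all genes tested. The call held in each of the 12 fits that left out 1 library, in either tissue. Of the 4 members 3 were called in kidney, where 15.0% of 19277 genes tested were, and 4 in liver, where 16.6% of 18655 were. An amplitude at least as large as that of Nr1d1 was found in 0.301% of the genes tested in kidney and 1.42% in liver.

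Nr1d2, too, had its highest mean TS level at ZT8 and its lowest at ZT20 in both tissues. In kidney it had 1.49 and 1.46 RPKM at ZT0, 1.69 and 1.85 at ZT4, 2.07 and 2.05 at ZT8, 1.77 and 1.85 at ZT12, 1.48 and 1.54 at ZT16, and 1.12 and 1.21 at ZT20. The ZT8 pair was the highest and the ZT20 pair the lowest, each apart from all other kidney libraries. In liver it had 1.12 and 1.62 RPKM at ZT0, 1.56 and 1.79 at ZT4, 1.74 and 1.74 at ZT8, 1.55 and 1.58 at ZT12, 1.43 and 1.35 at ZT16, and 0.832 and 0.934 at ZT20, where again both libraries were below the rest. The amplitude was 0.33 ± 0.04 with a peak at 8.3 h in kidney (adjusted p = 0.00023) and 0.37 ± 0.08 with a peak at 7.8 h in liver (adjusted p = 0.0181), or 1.57-fold and 1.67-fold between peak and trough. The liver call was lost without ZT20 replicate 1 (adjusted p = 0.0639) or ZT20 replicate 2 (0.0709), and no single library changed the kidney call.

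The TS of Thra was rhythmic in liver, where its highest mean fell at ZT0, and did not pass in kidney, where its highest mean fell at ZT4. In liver its libraries had 4.08 and 3.0 RPKM at ZT0, 3.04 and 2.60 at ZT4, 2.37 and 1.88 at ZT8, 2.00 and 1.90 at ZT12, 2.56 and 2.40 at ZT16, and 3.41 and 3.01 at ZT20. The 4 libraries of ZT8 and ZT12 were the lowest. The amplitude was 0.44 ± 0.06 with a peak at 22.8 h (adjusted p = 0.000959), 1.85-fold between peak and trough, and no single library changed this call. In kidney the libraries had 4.05 and 2.77 RPKM at ZT0, 4.20 and 3.18 at ZT4, 3.40 and 2.72 at ZT8, 2.68 and 2.52 at ZT12, 2.99 and 2.59 at ZT16, and 3.96 and 3.12 at ZT20. Replicate 1 was above replicate 2 at all 6 times, and each time overlapped its neighbour in the order of levels. The kidney amplitude was 0.24 ± 0.07 with a peak at 0.38 h and did not pass (adjusted p = 0.0741). It passed with replicate number blocked (0.24, adjusted p = 0.00106) and without kidney ZT0 replicate 2 (0.32, adjusted p = 0.00463). Replicate 1 alone gave an amplitude of 0.33 and replicate 2 alone 0.13.

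Thrb had the smallest TS rhythms among the members with a call. In kidney it had 0.647 and 0.403 RPKM at ZT0, 0.432 and 0.424 at ZT4, 0.403 and 0.363 at ZT8, 0.536 and 0.447 at ZT12, 0.547 and 0.541 at ZT16, and 0.613 and 0.481 at ZT20. The amplitude there was 0.28 ± 0.07 with a peak at 18.9 h (adjusted p = 0.0363). In liver the libraries had 0.880 and 0.995 RPKM at ZT0, 0.979 and 0.878 at ZT4, 0.930 and 0.849 at ZT8, 1.03 and 0.985 at ZT12, 1.07 and 1.00 at ZT16, and 1.09 and 1.06 at ZT20. All neighbours in the liver order of levels overlapped, and the amplitude was 0.14 ± 0.04 with a peak at 17.7 h (adjusted p = 0.0415). Both calls depended on single libraries and on gene length. The kidney call was lost without ZT4 replicate 1 or 2, ZT8 replicate 1 or 2, ZT12 replicate 2, ZT16 replicate 1 or 2, or ZT20 replicate 1 (adjusted p up to 0.161), and the liver call without ZT4 replicate 2, ZT8 replicate 1 or 2, ZT12 replicate 2, ZT16 replicate 1, or ZT20 replicate 1 or 2 (up to 0.124). With the trend of each library over gene length removed, the amplitude was 0.20 in kidney (adjusted p = 0.0578) and 0.11 in liver (adjusted p = 0.568).

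**Figure D2:**
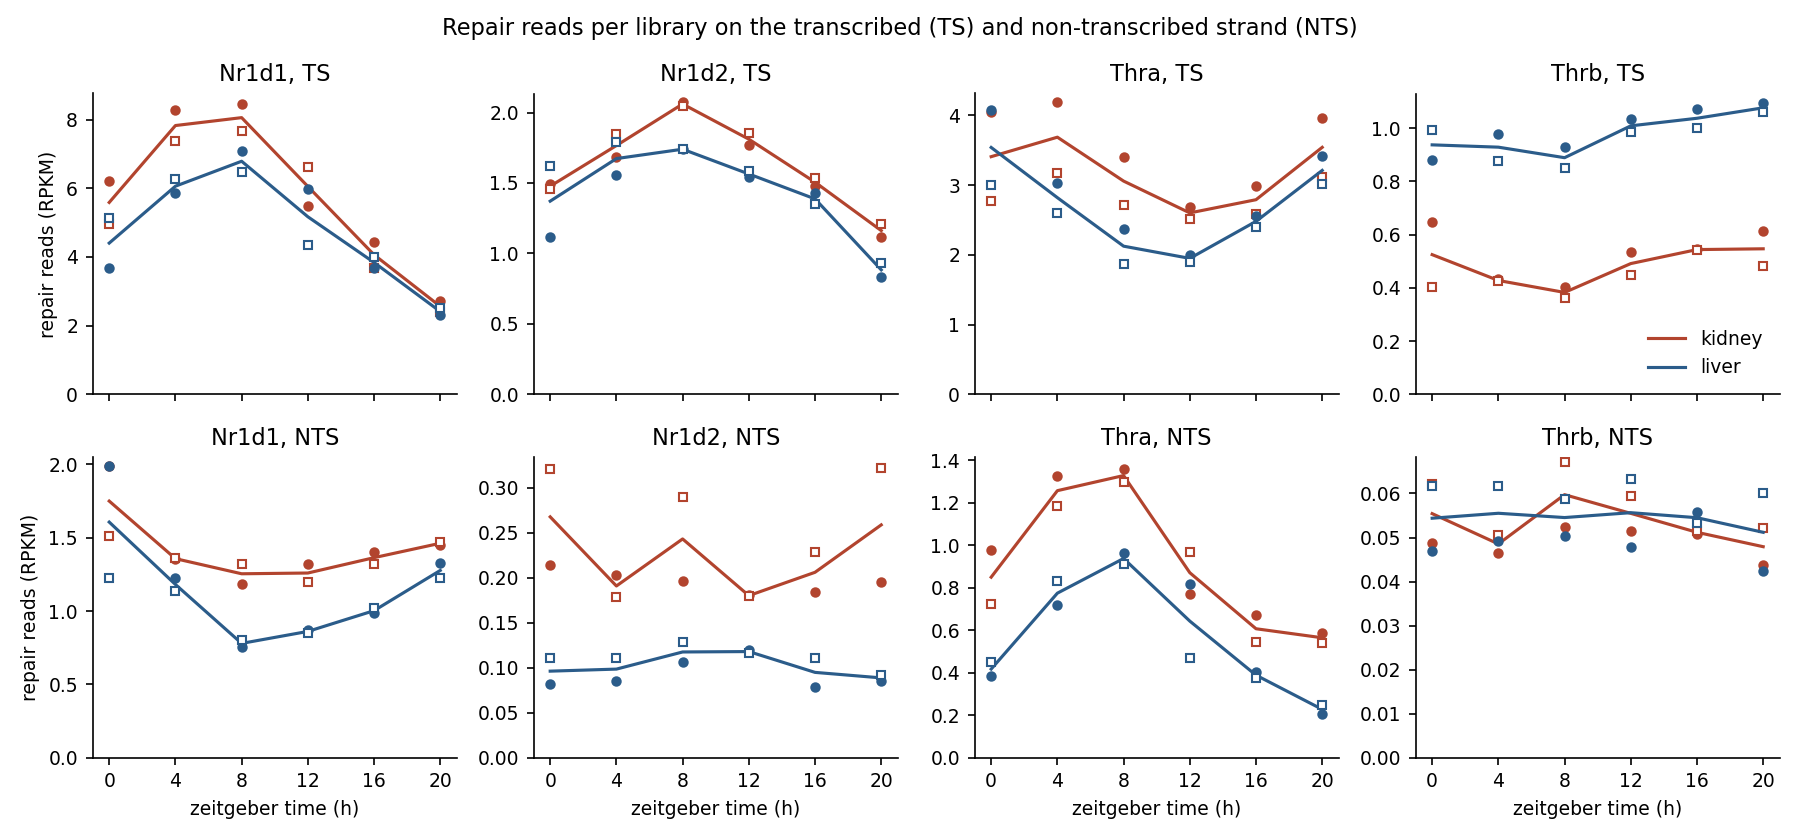
Repair reads in RPKM over zeitgeber time for the TS (top) and NTS (bottom) of each gene. Lines join the means of kidney (red) and liver (blue), with replicate 1 as filled circles and replicate 2 as open squares. TS repair of Nr1d1 and Nr1d2 is highest at ZT8 and lowest at ZT20, and the mean RPKM of the Thra NTS is likewise highest at ZT8 and lowest at ZT20.

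The NTS of Thra had its highest mean RPKM at ZT8 and its lowest at ZT20 in both tissues, as did the TS of Nr1d1. In kidney it had 0.978 and 0.722 RPKM at ZT0, 1.33 and 1.19 at ZT4, 1.36 and 1.30 at ZT8, 0.772 and 0.970 at ZT12, 0.672 and 0.544 at ZT16, and 0.589 and 0.541 at ZT20. In liver it had 0.387 and 0.449 RPKM at ZT0, 0.720 and 0.831 at ZT4, 0.963 and 0.913 at ZT8, 0.817 and 0.470 at ZT12, 0.404 and 0.374 at ZT16, and 0.205 and 0.251 at ZT20. In both tissues the ZT8 and ZT20 pairs did not overlap, and the mean at ZT8 was 2.35 times that at ZT20 in kidney and 4.11 times in liver. The amplitude was 0.53 ± 0.08 with a peak at 5.7 h in kidney (adjusted p = 0.0016) and 0.85 ± 0.09 with a peak at 7.6 h in liver (adjusted p = 7.24e-07), a range of 2.10-fold and 3.27-fold. Of the 4 members 2 were called on the NTS in each tissue, where 2.12% of 18932 genes tested were called in kidney and 3.76% of 18061 in liver. With the replicate number as a block 1473 kidney genes were called in place of 401. Both Thra calls held without any single library, but the kidney one did not pass when the 6 times were compared with no set shape (adjusted p = 0.103), under which 17 kidney genes were called. On the TMM scale of the fits the kidney NTS of Thra was higher at ZT4 (345 and 270.1 CPM) than at ZT8 (304.9 and 249.2), though these pairs overlap, and ZT4 was also the time of the highest mean of its kidney TS in RPKM.

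The NTS of Nr1d1 ran the other way, with its high values near dawn. In liver it had 1.99 and 1.23 RPKM at ZT0, 1.22 and 1.14 at ZT4, 0.755 and 0.805 at ZT8, 0.874 and 0.848 at ZT12, 0.984 and 1.02 at ZT16, and 1.33 and 1.23 at ZT20. The ZT8 pair was below all other liver libraries. The amplitude was 0.52 ± 0.08 with a peak at 22.4 h (adjusted p = 0.000373), which held without any single library. In kidney it had 1.99 and 1.51 RPKM at ZT0, 1.36 and 1.36 at ZT4, 1.19 and 1.32 at ZT8, 1.32 and 1.20 at ZT12, 1.40 and 1.32 at ZT16, and 1.45 and 1.47 at ZT20. Only the ZT0 pair was above every other kidney library. The kidney amplitude was 0.33 ± 0.07 with a peak at 21.5 h (adjusted p = 0.0374), and this call was lost in 9 of 12 fits that left out 1 library: ZT0 replicate 1, ZT4 replicate 2, ZT8 replicate 1 or 2, ZT12 replicate 2, ZT16 replicate 1 or 2, and ZT20 replicate 1 or 2 (adjusted p from 0.0529 to 0.169). It was also lost with the library total as the size (0.21, adjusted p = 0.153) and when the times were compared with no set shape (adjusted p = 0.422).

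No NTS rhythm of Nr1d2 or Thrb passed in the fits without a block. The kidney NTS of Nr1d2 ranged from 0.179 to 0.322 RPKM, and its amplitude of 0.32 ± 0.08, peaking at 21.5 h, did not pass (adjusted p = 0.0708). It passed with replicate number blocked (adjusted p = 0.00397) and without kidney ZT4 replicate 1 (0.0496) or ZT8 replicate 2 (0.0279). In liver the NTS of Nr1d2 ranged from 0.079 to 0.128 RPKM on 37 to 105 reads per library (amplitude 0.13 ± 0.08, adjusted p = 0.682). Thrb had 0.0437 to 0.067 RPKM on the kidney NTS (0.06 ± 0.05, adjusted p = 0.828) and 0.0424 to 0.0634 on the liver NTS (0.05 ± 0.06, adjusted p = 0.907).

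**Figure D3:**
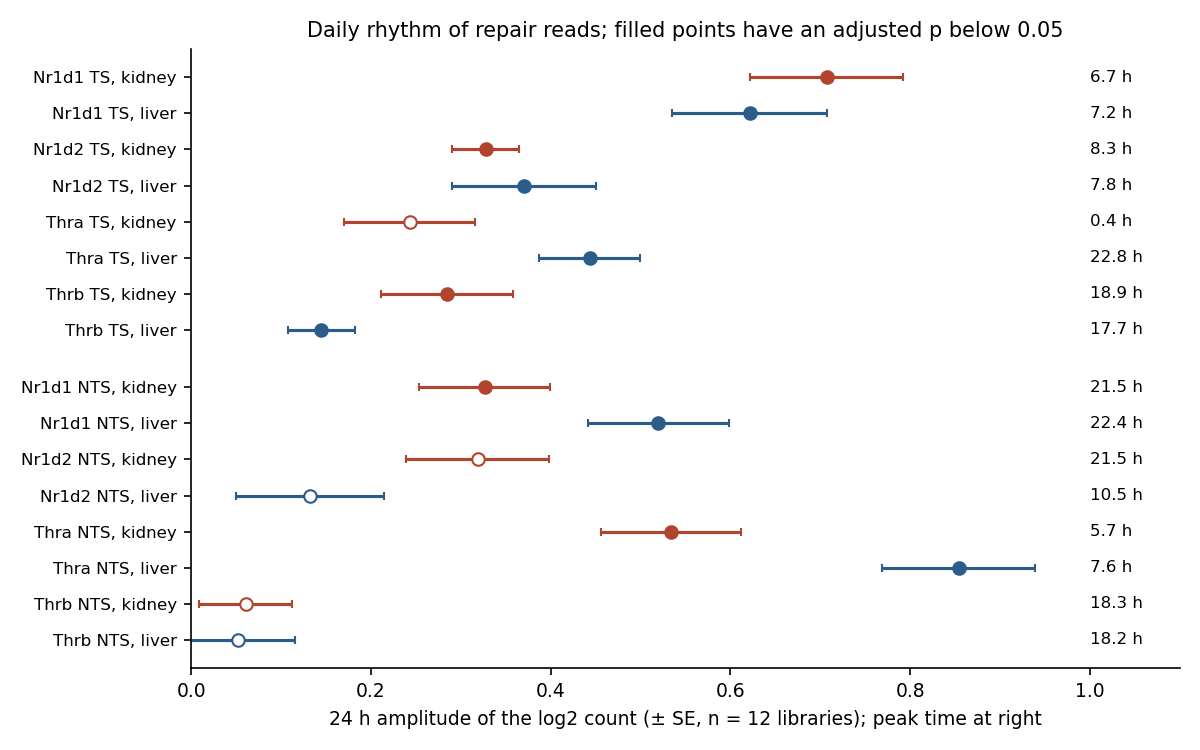
Amplitude of the 24 h fit of the log2 count (± SE, 12 libraries) for each gene, strand and tissue, with kidney in red, liver in blue, and the fitted peak time at the right. Filled points have an adjusted p below 0.05: 7 of 8 TS fits and 4 of 8 NTS fits, with the largest value, 0.85, for the NTS of Thra in liver.

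Set beside its partner, the NTS of Thra peaked 0.94 h from the TS of Nr1d1 in kidney and 0.37 h from it in liver, against 5.36 h and 8.82 h from its own TS. With replicates 1 and 2 fitted alone, the Thra NTS peaked at 4.8 and 6.7 h in kidney and 8.4 and 6.4 h in liver. The Nr1d1 TS then peaked at 6.1 and 7.2 h in kidney and 8.1 and 6.1 h in liver. Peak gaps are thus not resolved to the hour. The NTS of Nr1d1 peaked 2.86 h from the TS of Thra in kidney and 0.41 h from it in liver, against 9.16 h and 8.87 h from its own TS. Over the 12 liver libraries the log2 CPM of Thra NTS and Nr1d1 TS had a Pearson r of 0.967 and a Spearman rho of 0.958 (permutation p = 1e-05, the smallest possible, and 5e-05, adjusted over 8 relations 4e-05 and 0.00016). Over the 12 kidney libraries the same pair had r = 0.858 and rho = 0.916 (permutation p = 0.00041 and 6e-05, adjusted 0.00109 and 0.00016). Nr1d1 NTS and Thra TS had r = 0.956 and rho = 0.965 in liver (permutation p = 1e-05, the smallest possible, and 2e-05, adjusted 4e-05 and 0.00016), and r = 0.726 and rho = 0.671 in kidney (permutation p = 0.00682 and 0.0206, adjusted 0.0136 and 0.0412). Without the 2 libraries farthest from the median TS level, r was 0.950 and 0.950 for Thra NTS with Nr1d1 TS in kidney and liver, and 0.652 and 0.913 for Nr1d1 NTS with Thra TS. Within replicate 1 and within replicate 2 (6 libraries each) the 4 values lay between 0.576 and 0.994. The lowest of these belonged to Nr1d1 NTS with Thra TS in kidney replicate 1. The permutations treated the 12 libraries as exchangeable, so 2 strands that share only a daily course can also give small p-values. Reads in the 1075 bp that Nr1d1 and Thra share are counted on both strands of a pair. They were not removed here, so part of each r was set in advance. By their own TS, other genes also came close to Nr1d1 TS (r = 0.935 for Gnal in kidney, 0.947 for Maff in liver). A link of the partner strands beyond a shared daily course and shared reads was not tested.

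**Figure D4:**
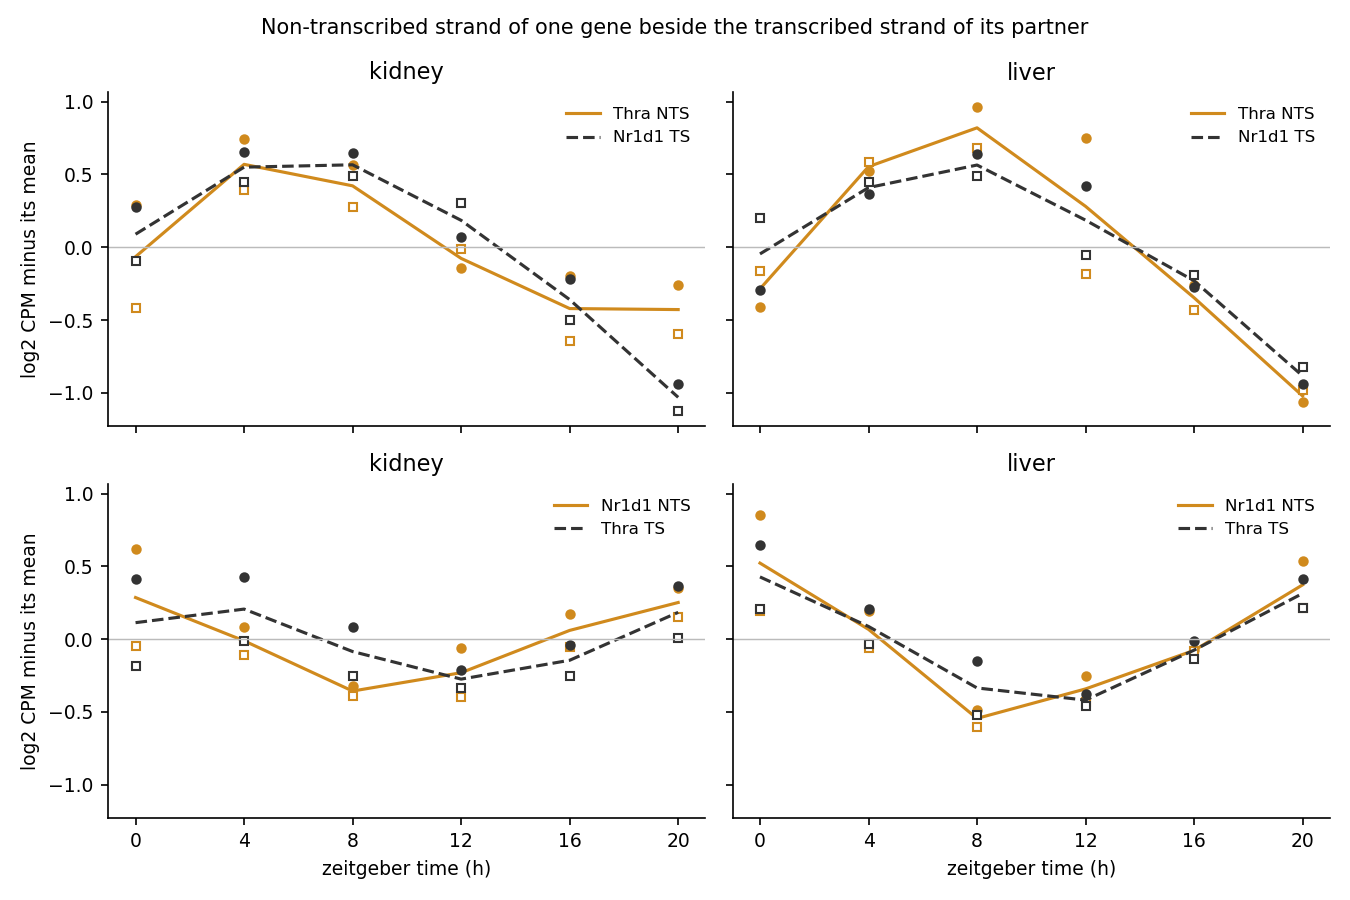
The log2 CPM of the NTS of one gene (orange) and the TS of its partner (black, dashed), each less its own mean over 12 libraries, over zeitgeber time in kidney (left) and liver (right). Replicate 1 is shown as filled circles and replicate 2 as open squares, and in liver the NTS of Thra and the TS of Nr1d1 (top) both have their lowest libraries at ZT20.

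The per-library ratio of the NTS of one gene to the TS of its partner asked whether both kept one course. It used read counts with no scaling of either strand. Its amplitude therefore also holds any daily shift of the NTS share over all genes, which was not taken out. For Nr1d1 NTS over Thra TS the 24 h amplitude of the log2 ratio was 0.12 ± 0.10 in kidney and 0.03 ± 0.07 in liver (permutation of the times, adjusted over 8 relations, p = 0.598 and 0.913). For Thra NTS over Nr1d1 TS it was 0.15 ± 0.09 in kidney (adjusted permutation p = 0.512). A p above the threshold does not show that the courses were equal. In liver the same ratio had an amplitude of 0.30 ± 0.05 with a peak at 8.0 h (adjusted permutation p = 0.0165). On the TMM scale of the fits the liver amplitude was 0.85 for the Thra NTS and 0.62 for the Nr1d1 TS. The same was computed for the pair that does not overlap. Nr1d2 NTS with Thrb TS had r = 0.104 in kidney and -0.08 in liver (permutation p = 0.748 and 0.797, adjusted 0.797 for both). Thrb NTS with Nr1d2 TS had r = -0.54 in kidney and 0.142 in liver (permutation p = 0.067 and 0.659, adjusted 0.107 and 0.797), and the kidney rho was -0.64 (permutation p = 0.0275, adjusted 0.044). The ratio of Thrb NTS to Nr1d2 TS had amplitudes of 0.27 ± 0.07 in kidney and 0.36 ± 0.08 in liver, with peaks at 19.9 h and 19.8 h (adjusted permutation p = 0.0251 and 0.00992). The kidney one was lost without ZT8 replicate 1 (0.0896), ZT20 replicate 1 (0.0525) or ZT20 replicate 2 (0.0859). That of Nr1d2 NTS to Thrb TS did not pass in kidney (0.23 ± 0.20, 0.598) or liver (0.30 ± 0.10, 0.0896), though it passed in liver without ZT4 replicate 1 (0.0204).

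In the tables a read within the shared bases is counted for both genes, so the strands compared above hold some reads in common. A deposited table of overlapping genes in kidney, drawn down to a fixed number of reads per library, holds the joint span of Nr1d1 and Thra (33.6 kb) on 2 lines, 1 for each strand of DNA. Set against the full tables, it gives the kidney reads counted for both genes. Those of liver were not measured. In the 7 kidney libraries that kept over 80% of their reads, 23.3% to 32.7% of the Thra NTS reads were also Nr1d1 TS reads, and 15.8% to 26.6% of the Nr1d1 NTS reads were also Thra TS reads. The other Thra NTS reads lay outside the annotated span of Nr1d1. These had 25.8 and 27.1 CPM (reads scaled to the library) at ZT8 and 10.6 and 10.6 at ZT20. Their amplitude was 0.66 ± 0.11 and their peak fell at 6.4 h, with a permutation p of 0.00203 (0.00406 after adjustment over 2 tests). No single library changed that call. The Nr1d1 NTS reads outside Thra had an amplitude of 0.10 ± 0.15 (adjusted permutation p = 0.829). Both amplitudes use the library total as the size, so they are on another scale than the TMM fits. With the library total as the size, the whole kidney NTS of Nr1d1 had an amplitude of 0.21. The 2 tests of reads outside the partner were chosen after the data had been seen and include the 5 libraries that kept fewer reads. In kidney ZT12 replicate 1, which kept 25.8%, the estimated share of Nr1d1 NTS reads was negative (-9.74%).

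The 2 lines of the joint span gave the courses of the strands with each read counted once. Line 2, which holds the TS of Nr1d1 and the NTS of Thra, ranged from 28.6 to 88.7 CPM (median 57.01) and had an amplitude of 0.73 ± 0.08, peaking at 6.7 h (permutation p of 0.0001, or 0.00015 after adjustment over 3 tests). Line 1, which holds the TS of Thra and the NTS of Nr1d1, ranged from 75.7 to 122.3 CPM (median 91.0) and had an amplitude of 0.21 ± 0.08, peaking at 0.95 h (permutation p of 0.0806, adjusted 0.0806). It passed with replicate number blocked (0.0053) and without kidney ZT0 replicate 2 (0.0106). The ratio of line 2 to line 1 ranged from 0.274 to 1.02 and had an amplitude of 0.75 ± 0.10, peaking at 7.8 h (permutation p of 6e-05, adjusted 0.00015).

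In kidney and in liver TS reads outnumbered NTS reads in each of the 4 genes, but Nr1d1 and Thra had lower ratios than the median gene. The log2 TS/NTS ratio of Nr1d1 was 1.93 ± 0.15 (SE) in kidney and 2.05 ± 0.17 in liver, or 3.80 and 4.14 times as many TS reads. Thra had 1.85 ± 0.12 and 2.33 ± 0.20, or 3.60 and 5.03 times. The median over all genes tested was 2.34 in kidney and 2.51 in liver. Nr1d2 stood above it with 2.86 ± 0.12 in kidney and 3.79 ± 0.08 in liver (7.27 and 13.8 times), as did Thrb with 3.18 ± 0.11 and 4.18 ± 0.07 (9.06 and 18.1 times). The adjusted p was 2.86e-11 or smaller in each case, and 78.6% of 19756 kidney and 77.9% of 19256 liver genes were likewise called higher on the TS. TMM over the strand columns lowers all 4 genes alike, since it sets the strands level over all genes. On that relative scale Nr1d1 had -0.41 in kidney and -0.36 in liver (adjusted p = 0.0133 and 0.0524) and Thra -0.50 and -0.084 (1.54e-05 and 0.674), while TS reads still outnumbered NTS reads in both genes.

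The strand ratio of Nr1d1 and of Thra swung over the day in opposite directions. Reads in the shared bases count as TS for one gene and as NTS for the other, so these ratios are not independent. Nr1d1 had 7.10 and 5.78 TS reads per NTS read at ZT8 and 1.86 and 1.64 at ZT20 in kidney, and 9.34 and 8.03 at ZT8 and 1.73 and 2.05 at ZT20 in liver. Thra had 2.50 and 2.09 at ZT8 and 6.70 and 5.76 at ZT20 in kidney, and 2.46 and 2.05 at ZT8 and 16.5 and 12.0 at ZT20 in liver. For each gene the ZT8 and ZT20 pairs stood apart in both tissues. The amplitude of the log2 ratio was 0.88 ± 0.09 for Nr1d1 in kidney with a peak at 7.5 h (adjusted p = 1.5e-05) and 0.99 ± 0.11 in liver with a peak at 8.7 h (2.39e-06). For Thra it was 0.66 ± 0.08 with a peak at 19.6 h (0.000364) and 1.25 ± 0.10 with a peak at 20.5 h (2.15e-09). These 4 calls held without any single library.

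Of the members 3 were called for a rhythm of the ratio in kidney, where 1.49% of the genes tested were, and 2 in liver, where 6.10% were. The third in kidney was Nr1d2 (0.52 ± 0.11, peak 9.1 h, adjusted p = 0.0414), lost without ZT4 replicate 2, ZT8 replicate 1, or either library of ZT12, ZT16 or ZT20 (adjusted p from 0.0505 to 0.142). In liver Nr1d2 had 0.22 ± 0.10 (adjusted p = 0.404). Thrb did not pass in kidney (0.33 ± 0.12, adjusted p = 0.191) or liver (0.16 ± 0.08, 0.491). In kidney it passed with replicate number blocked (0.00435), under which 3548 genes were called in place of 294, and without ZT0 replicate 2 (0.0147).

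**Figure D5:**
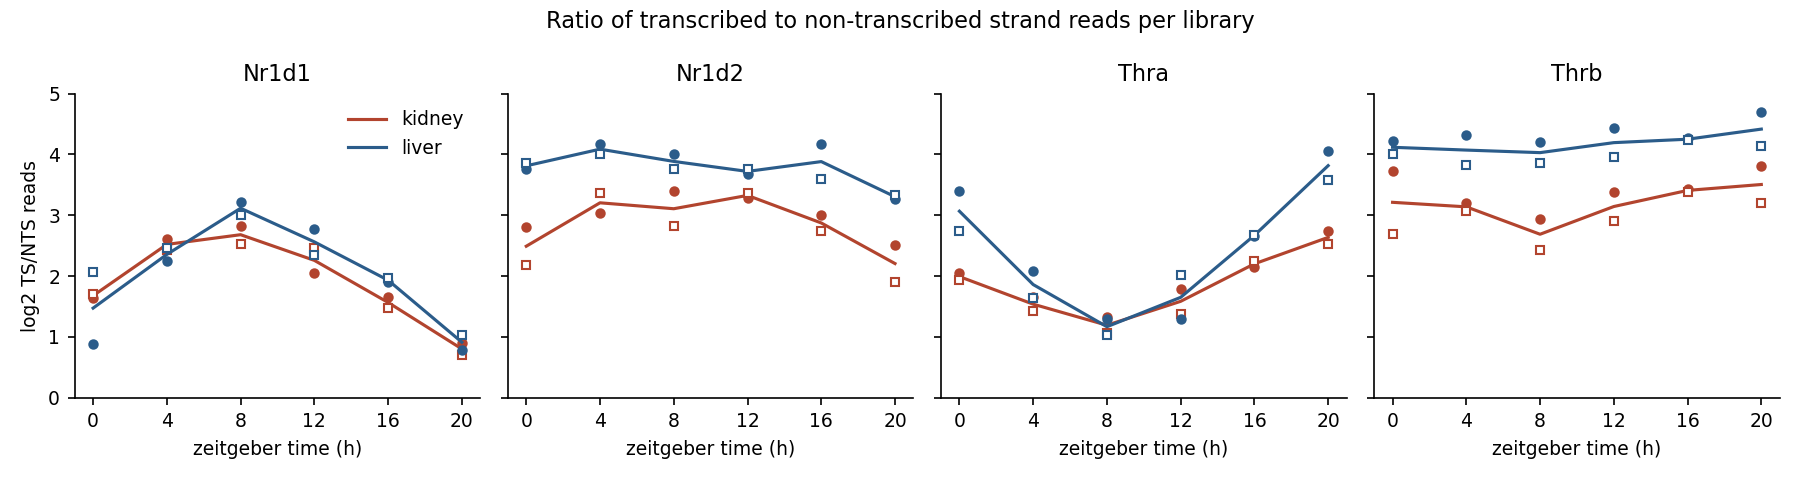
The log2 ratio of TS to NTS reads in each library over zeitgeber time, with kidney in red, liver in blue, lines through the means, replicate 1 as filled circles and replicate 2 as open squares. The ratios of Nr1d1 and Thra, which hold some reads in common, run in opposite directions between ZT8 and ZT20. The liver libraries of Thrb stand above the kidney ones of the same gene.

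Between the tissues, Thrb differed most. Its TS level was 2.10-fold lower in kidney than in liver (log2 kidney minus liver -1.07 ± 0.07, adjusted p = 1.36e-10), and the ranges of the 12 kidney and 12 liver libraries, 0.363 to 0.647 and 0.849 to 1.09 RPKM, did not overlap. That call held in 24 of 24 fits that left out 1 library. Nr1d1 (0.17 ± 0.07, adjusted p = 0.0368), Nr1d2 (0.14 ± 0.05, 0.0164) and Thra (0.21 ± 0.08, 0.0275) passed as higher in kidney under TMM scaling, where the median over all genes was 0.07. Among the 19702 genes tested, 42.2% were called higher in kidney and 31.7% lower. With RLE size factors none of the 3 passed (adjusted p = 0.156, 0.138 and 0.097, with log2 differences of 0.12, 0.085 and 0.16), nor with DESeq2 (0.164, 0.159 and 0.0949). Single libraries ended the 3 calls as well: that of Nr1d1 without kidney ZT0, ZT4, ZT8, ZT16 or ZT20 replicate 1, kidney ZT12 replicate 2, liver ZT0 or ZT4 replicate 1, liver ZT8 or ZT12 replicate 2, or any liver library of ZT16 or ZT20 (adjusted p up to 0.158). That of Nr1d2 was lost without kidney ZT0 replicate 1, liver ZT0, ZT4 or ZT20 replicate 1, liver ZT12 replicate 1 or 2, or liver ZT16 replicate 2 (up to 0.0901). That of Thra was lost without any kidney replicate 1 library, liver ZT0, ZT4, ZT8 or ZT20 replicate 2, or any liver library of ZT12 or ZT16 (up to 0.124).

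The rhythms of TS repair were not shown to differ between the tissues. None of the 4 members was called for a difference of rhythm by edgeR, none had an unadjusted p below 0.05, and none was called by DESeq2, while 0.939% of all genes tested were called by edgeR. The amplitude of the difference was 0.13 ± 0.13 (SE) for Nr1d1, 0.06 ± 0.09 for Nr1d2, 0.25 ± 0.10 for Thra and 0.15 ± 0.09 for Thrb, and the lowest unadjusted p was 0.0794, for Thra (adjusted p = 0.491). That of Thra passed with replicate number blocked (adjusted p = 0.0486), where the number paired the libraries in kidney alone.

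The strand ratio of 2 of the 4 genes passed a test of the tissue difference. This test was chosen after the ratios had been seen and was run on these 4 genes alone. It did not keep the times matched, so the daily swing of a gene counted as spread, most so for Nr1d1 and Thra. The median ratio over all genes was also lower in kidney (2.34) than in liver (2.51), and so were those of the neighbours Med24 (3.14 and 4.69), Msl1 (0.37 and 0.81) and Rarb (1.54 and 1.80), while Rpl15 had 3.22 in kidney and 3.17 in liver. The log2 TS/NTS ratio per library averaged 2.87 ± 0.48 in kidney and 3.78 ± 0.29 in liver for Nr1d2 (SD, n = 12 each), and 3.18 ± 0.40 in kidney and 4.18 ± 0.25 in liver for Thrb. The differences were -0.91 for Nr1d2 (adjusted p = 6e-05) and -1.0 for Thrb (adjusted p = 4e-05, from the smallest p that the permutations can give), by 2-sided permutation of the tissue with adjustment over the 4 genes, and the kidney mean was lower at 6 of 6 times. Nr1d1 averaged 1.92 ± 0.68 in kidney and 2.06 ± 0.80 in liver, a difference of -0.14 (95% interval -0.74 to 0.46, adjusted permutation p = 0.645). Thra averaged 1.86 ± 0.51 in kidney and 2.37 ± 0.98 in liver, a difference of -0.51 (-1.14 to 0.11, adjusted permutation p = 0.16). The kidney mean of Thra was lower at 5 of 6 times, with differences of -0.51 in replicate 1 and -0.52 in replicate 2. That of Nr1d1 was lower at 4 of 6 times (-0.023 and -0.26). A tissue difference with the times matched was not tested. The strand that differed was not the same in Nr1d2 and Thrb. For Nr1d2 the NTS averaged 0.224 ± 0.0548 RPKM in kidney and 0.102 ± 0.0166 in liver, beside TS means of 1.63 ± 0.303 and 1.44 ± 0.319 (SD, n = 12 each). For Thrb the NTS averaged 0.053 ± 0.00661 RPKM in kidney and 0.0543 ± 0.00691 in liver, beside TS means of 0.486 ± 0.0898 and 0.98 ± 0.0807.

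The entries next to the 2 pairs were tested in the same fits. Med24, which encodes a subunit of the Mediator complex, lies 12.3 kb below Thra on the minus strand, and Msl1 lies 20.4 kb above Nr1d1 on the plus strand. Rarb, a retinoic acid receptor gene, lies 578.6 kb below Thrb and Rpl15, a ribosomal protein gene, 28.7 kb above Nr1d2, both on the minus strand. None of these 4 was called for an NTS rhythm by edgeR in either tissue, where Thra and Nr1d1 were. The smallest adjusted p was 0.244, for Rarb in kidney. NTS calls were rare in general (2.12% of kidney genes and 3.76% of liver genes), so the lack of a call does not set these neighbours apart. On the TS, Med24 had an amplitude of 0.23 in liver with a peak at 19.9 h (adjusted p = 0.00392) and of 0.11 in kidney (0.282). Rarb had 0.23 in kidney with a peak at 19.6 h (0.00675) and 0.24 in liver with a peak at 15.7 h (0.0488). Rpl15 had 0.22 in kidney with a peak at 5.3 h (0.0436) and 0.21 in liver (0.145), and Msl1 had 0.06 in kidney (0.531) and 0.12 in liver (0.0809).

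By Pearson correlation of TS log2 CPM over 12 libraries, the genes most like Nr1d1 were Gnal, Acadl and Klf11 in kidney (r of 0.935, 0.926 and 0.926) and Maff, Pvr and Dusp3 in liver (0.947, 0.943 and 0.941). Those most like Nr1d2 were Tbx3, Tmc8 and Crygn in kidney (0.966, 0.958 and 0.954) and Lncenc1, 4833422C13Rik and Gm9895 in liver (0.963, 0.933 and 0.933). Thra was most like Vill, Apln and Sox13 in kidney (0.947, 0.934 and 0.929) and Intu, Ano10 and Ppm1f in liver (0.940, 0.939 and 0.935). Thrb was most like Dpf3, Sox6 and Itpr2 in kidney (0.991, 0.989 and 0.989) and Xrn1, Sec24b and Sos2 in liver (0.948, 0.948 and 0.940). The values are the highest among 16807 kidney and 16078 liver genes, and no gene was among the 3 of a member in both tissues. A high r need not mean a shared daily course. The 3 genes of Thra in kidney were not called for a TS rhythm by edgeR (adjusted p = 0.326, 0.295 and 0.498). Neither were the 3 of Thrb in liver (0.111, 0.129 and 0.170), nor Lncenc1 (0.075) and 4833422C13Rik (0.0998) there. Crygn had a wider TS swing than Nr1d2, with 0.61 on the log2 scale and its peak at 8.1 h.

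Genes of the REV-ERB and ROR pathway (competing receptors, corepressors, ubiquitin ligases and targets) were called rhythmic on the TS in 11 of 27 entries tested in kidney (40.7%, where 15.0% of all genes were), 9 of these with a peak between 12 and 24 h, and in 12 of 28 entries in liver (42.9%, where 16.6% were), again 9. Ncor1, a corepressor, has 2 of these entries, and 1 of them was called, in kidney (adjusted p = 0.0432 and 0.65). The list includes core clock genes among its targets and was chosen with earlier results of these data known. Its shares are therefore no independent test of the pathway. The median amplitude of the list was 0.14 in kidney and 0.15 in liver, beside 0.13 and 0.14 over all genes tested. How many of all called genes peak between 12 and 24 h was not counted, so the peak counts have no share to stand beside. Fbxw7, part of a ubiquitin ligase that acts on REV-ERBα, had an amplitude of 0.22, peaking at 18.6 h, in kidney (adjusted p = 0.00113) and 0.18 with a peak at 20.0 h in liver (0.00103). Tbl1x, a corepressor subunit, had 0.18 in kidney (0.006) and 0.14 in liver (0.0101). Alas1, the first enzyme of heme synthesis, had 0.15 in kidney (0.0199) and 0.027 in liver (0.873). Cyp7a1, the rate-limiting enzyme of bile acid synthesis, had 0.68 with a peak at 14.0 h in liver (0.0162) and was under the filter on low counts in kidney. On the NTS 2 of 27 entries were called in kidney (where 2.12% of all genes were) and 7 of 27 in liver (where 3.76% were).

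Of the thyroid hormone genes (partner receptors, deiodinases, transporters, coactivators and targets) 7 of 24 tested (29.2%, where 15.0% of all genes were) were called rhythmic on the TS in kidney, all 7 with a peak between 12 and 24 h, and 6 of 24 (25.0%, where 16.6% were) in liver, 4 of them between 0 and 12 h. The median amplitude was 0.16 in kidney and 0.12 in liver, beside 0.13 and 0.14 over all genes tested. For the peak times of this list, too, the share over all called genes was not counted. It was likewise chosen with earlier results of these data known. The transporter Slc16a10 was among those of kidney (amplitude 0.14, peak 19.0 h, adjusted p = 0.00895) and had 0.069 in liver (0.413), and the coactivator Ncoa1 was called in both tissues (0.20 with a peak at 18.3 h in kidney, 0.0129, and 0.19 with a peak at 19.5 h in liver, 0.00571). Rxra, the partner receptor, was called in kidney with a peak at 20.5 h (0.17, adjusted p = 0.0253) and in liver with a peak at 9.2 h (0.11, 0.0288). Klf9, a target gene, was called in liver (0.11, 9.9 h, adjusted p = 0.0315), as was Med24, and had 0.075 in kidney (0.16). None of the 23 list genes tested on the NTS was called by edgeR in either tissue. Across the genome 2.12% of kidney genes and 3.76% of liver genes were called there, so a list of this size could well hold none.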

How the data were processed

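XR-seq was run on kidney and liver at 6 zeitgeber times with 2 libraries each. The authors deposited read counts per gene and strand for each tissue, with RPKM values beside them, per the file headers; mm10 is the build in the submitters' processing notes, and an aligner is not given in the sources used here. Those RPKM values are reads scaled to gene length and library size and were printed for the 4 genes as deposited. Per the file headers, a kidney table of counts drawn down to a fixed total also lists overlapping genes. The design had assumed that this table held the shared bases, but its lines span both genes, so shared reads were computed as the sum of the genes less the line. The labels' protocol for extraction names anti-CPD or anti-BPDE antibodies, while the treatment is cisplatin.

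Counts were fitted with edgeR 4.0.16 (R 4.3.3, TMM, low counts filtered) over all genes, with cosine and sine terms of 24 h per tissue and strand. TS was set against NTS with shared library sizes, in DESeq2 1.42.0 too. Adjusted p-values are Benjamini-Hochberg over all genes tested, with 0.05 as the threshold. Ratios and correlations used 100000 permutations (numpy 2.4.6, scipy 1.17.1). The scripts were tested on simulated data. The genes, lists and tests were chosen with earlier results of these data known. Text names are the members, their nearest entries, the 3 genes most correlated with each member, and up to 6 called genes of each list. Some list genes are not reported here. Entries without a symbol held 2.75% to 3.04% of reads and stayed out of the fits, and 0 sample columns were left unused. Replicate numbers come from the names of the tables alone. Deviations of same-numbered kidney libraries correlated above 0.1 in 15 of 15 pairs of times on both strands (lowest 0.134 for TS and 0.117 for NTS), so the number was taken as pairing there; in liver 6 and 5 of 15 pairs did. Library pairs of a time differed by more than sampling noise (chi-square per degree of freedom 1.63 to 24.3). The ZT0 pairs had the highest values, 24.3 in liver and 13.7 in kidney on the TS, where other times reached at most 5.45. On the NTS they had 4.84 and 3.86, where other times reached at most 2.60. The alternatives were other scalings, filters, tools, tests and tables, the replicate block, each replicate alone and each library left out. Depth limits the NTS of Nr1d2 in liver most, and counts cover counting error only.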

Additional observations from a re-analysis of the deposited data

Results flagged for a closer look

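The log2 TS/NTS ratio of Nr1d2 was lower in kidney than in liver by a difference of -0.91, and that of Thrb by a difference of -1.0, each past the threshold in a permutation of the tissue over 12 and 12 libraries (adjusted p = 6e-05 and 4e-05). Both were lower in kidney at 6 of 6 times, and in replicate 1 (-0.84 for Nr1d2 and -0.94 for Thrb) as well as replicate 2 (-0.99 and -1.05). No single library, when left out, changed either call. The test was chosen after the ratios had been seen. The median over all genes was 2.34 in kidney and 2.51 in liver, and the neighbour Med24 had 3.14 in kidney and 4.69 in liver, a gap wider than that of either gene.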

How the results depend on the processing

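The replicate number as a block, which pairs libraries in kidney, took the genes called to 4899 for the kidney TS rhythm, 1473 for the kidney NTS rhythm, 3548 and 1939 for the ratio rhythm in kidney and liver, and 447 for the rhythm difference between tissues. It brought past the threshold Thra TS in kidney (0.24), Nr1d2 NTS in kidney (0.32), the Thra rhythm difference (0.25), the Thrb ratio in kidney (0.33), Nr1d2 NTS over Thrb TS in liver (0.30) and line 1 (0.21); none of the other 37 of 43 member calls changed. Comparing the times with no set shape called 196 and 549 genes on the TS and 17 and 270 on the NTS in kidney and liver, and lost Nr1d1 NTS (0.34) and Thra NTS (0.50) in kidney and Thrb TS in kidney (0.29) and liver (0.16). The drawn-down tables gave 228 kidney NTS calls and took Nr1d2 NTS past the threshold (0.36). The library total as the size gave 218, lost Nr1d1 NTS in kidney (0.21) and reversed the uncalled Thrb NTS in kidney (0.10) and liver (0.039). Without a filter 1171 and 1156 genes were called on the NTS and 502 for the kidney ratio, and Nr1d2 NTS in kidney passed (0.32). DESeq2 called 587 genes for the rhythm difference and 740 for the liver ratio. Replicate 1 alone gave amplitudes of 0.33 for Thra TS and 0.20 for Nr1d2 NTS in kidney, and in liver 0.74 for Nr1d1 TS and 0.63, 0.22 and 0.99 for the NTS of Nr1d1, Nr1d2 and Thra; replicate 2 alone gave 0.13 for Thra TS in kidney and 0.41 for Nr1d1 NTS in liver. Without the length trend Thrb TS had 0.20 in kidney and 0.11 in liver. TMM over the strand columns, which lowers all 4 genes alike by its construction, took TS over NTS of Nr1d1 (-0.41 in kidney, -0.36 in liver) and Thra (-0.50, -0.084) below 0, and the liver values did not pass (adjusted p = 0.0524 and 0.674). RLE and DESeq2 each gave kidney minus liver levels of 0.12 for Nr1d1, 0.085 for Nr1d2 and 0.16 for Thra, all lost. The causes of the other changes were not tested. Leaving out 1 library gave kidney amplitudes of 0.26 to 0.38 for Nr1d1 NTS, 0.23 to 0.42 for Nr1d2 NTS, 0.20 to 0.32 for Thra TS, 0.24 to 0.33 for Thrb TS, 0.41 to 0.66 for the Nr1d2 ratio, 0.24 to 0.40 for the Thrb ratio, 0.24 to 0.33 for Thrb NTS over Nr1d2 TS and 0.18 to 0.29 for line 1. In liver it gave 0.30 to 0.43 for Nr1d2 TS, 0.12 to 0.17 for Thrb TS, 0.24 to 0.35 for Nr1d2 NTS over Thrb TS and 0.022 to 0.064 for Nr1d1 NTS over Thra TS, which was uncalled and reversed without ZT0 or ZT8 replicate 1. Tissue differences ranged from 0.11 to 0.20 for Nr1d1, 0.074 to 0.16 for Nr1d2 and 0.13 to 0.26 for Thra. Genes called ranged from 908 to 3938 and 1639 to 4514 on the TS, 87 to 1063 and 385 to 1027 on the NTS, and 44 to 2792 and 542 to 1546 for the ratio in kidney and liver, and from 112 to 400 for the rhythm difference.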
